A study of Mus musculus with 6 samples.

Results

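Open chromatin was examined around 7 genes of thyroid hormone action, the receptors Thra and Thrb, the deiodinases Dio1, Dio2 and Dio3, the transporter Slc16a10 and the responsive gene Thrsp, out of 21938 protein-coding genes. The genes were chosen for their known roles, and every ATAC-seq peak with its summit from 50 kb before to 50 kb after one of them was taken, which gave 167 of 194610 open regions after peaks of all libraries that overlapped by at least 1 bp were merged. ATAC-seq marks DNA that a transposase can reach, and each library was deposited as a list of peaks without reads. Preadipocytes of the stromal vascular fraction came from wild type C57BL/6J male mice of 3 to 4 weeks. They were grown into fat cells and collected after 7 days, with 2 replicates in each of 3 groups. Beige and white adipocytes came from subcutaneous (inguinal) fat and brown adipocytes from brown adipose tissue. The study calls its ATAC-seq replicates biological but does not describe the brown libraries, whose treatment is that of the deposited labels. It does not say whether the brown libraries were made together with the others. Beige and brown cells received 5 μM dexamethasone, 0.5 mM IBMX, 5 μg/ml insulin, 1 nM triiodothyronine (T3) and 1 μM rosiglitazone, while white cells received 1 μM dexamethasone with the same IBMX and insulin and neither T3 nor rosiglitazone. The insulin dose is that of the deposited labels, whereas the methods of the study give other amounts, which differ between beige and white medium. The effects of T3, of rosiglitazone, of the dexamethasone dose and of any difference in insulin therefore cannot be told apart, and in brown cells the tissue of origin differed as well.

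Thyroid hormone circulates mostly as the prohormone T4, enters cells through carriers such as the one encoded by Slc16a10, and is converted to the active T3 by outer-ring deiodination. Inside the nucleus T3 binds receptors that sit on paired AGGTCA hexamers together with a retinoid X receptor, and that repress many targets when no hormone is bound. In brown fat, conversion of T4 to T3 by the type 2 enzyme is part of the response to cold, and T3 is known to raise thermogenic and lipogenic genes.

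The lists held 109143 to 127490 peaks. As they hold no reads, libraries were compared by whether a peak was called, by its -log10 q, which tells how far it lay past the authors' threshold (-log10 q of 1.3), and by the percentile of its fold enrichment among all peaks of its own library. The percentile is a rank within a library, not an amount of signal. With 4 libraries given T3 against 2 white ones, an exact two-sided permutation test cannot give a p below 0.133 (2 against 2: 0.333), so no test was made between groups. White replicate 2 ranked promoters slightly lower than the other libraries, with a median percentile of 85.6 over the 13637 coding genes that had a promoter peak everywhere, against 87.7 to 90.7 in the other 5. All 6 adipocyte markers examined, Adipoq and Plin1 among them, had a promoter peak in every library. Of 5 brown fat markers, Cidea, Prdm16 and Ppargc1a had one in all libraries, and Zic1 in both brown libraries and beige replicate 2. Ucp1, the uncoupling protein of brown fat, had one in the brown libraries alone, at low percentiles of 9.12 and 4.23. Of 4 progenitor markers 3 had one in all libraries. That of Dpp4 ranked lower in the 4 T3 libraries (68.5 to 80.3) than in both white ones (82.0 and 88.0). That of Cd34 did as well (59.4 to 68.3 against 87.8 and 76.5). The third, Pdgfra, overlapped between the groups, with means of 71.4 with T3 and 58.7 in white. Among all 16 markers with a promoter peak everywhere 3 ranked lower in this way, Pecam1 of endothelium included, against 9.03% of coding genes. Cidea alone ranked above both white libraries, against 19%. The part of these differences in the results was not tested. Of the markers of other cell types, Ptprc and Csf1r of macrophages and Cdh5 of endothelium had none in any library, while Adgre1, Cd68, Pecam1 and Tek had one in each of the 6.

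Thrsp encodes a nuclear protein of lipogenic tissues that is known as a thyroid hormone responsive gene, and its start site was open in the cells given T3 and not called in white cells. The region lay at chr7:97417249-97417821 (mm10, minus strand gene at chr7:97412938-97417730, ENSMUSG00000035686.8), in the 5′ part that GENCODE annotates as UTR. The -log10 q was 19.5 and 28.5 in beige replicates 1 and 2, and 27.1 and 31.7 in brown replicates 1 and 2. The peaks ranked at percentiles 41.6, 51.6, 56.1 and 67.0 in the same order. Thus all 4 T3 libraries had a mid-ranked peak far past the threshold, and neither white library had any peak within 1 kb. Only 42 of 21938 coding genes (0.191%) had a promoter peak in all 4 T3 libraries and no white library, and Thrsp was the only one of the 7 genes that did.

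The summits lay at 151, 149, 112 and 134 bp after the GENCODE start. RefSeq sets the start further into the gene, at position 97417550, so that the same summits lay at -29, -31, -68 and -46 bp from it. The bases before the GENCODE start are shown because the open region ended within them. The sequence covers chr7:97417731-97417980 on the minus strand, and capitals mark the 91 bases inside the open region.
Thrsp upstream bases: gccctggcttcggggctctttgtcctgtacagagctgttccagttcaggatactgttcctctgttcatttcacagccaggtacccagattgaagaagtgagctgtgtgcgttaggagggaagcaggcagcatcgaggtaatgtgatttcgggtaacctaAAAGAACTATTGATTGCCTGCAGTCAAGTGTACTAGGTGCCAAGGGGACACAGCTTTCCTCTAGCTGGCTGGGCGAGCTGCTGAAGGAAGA
The 250 bases before the RefSeq start held CCAAT at -79 bp on the opposite strand and at -52 bp on the gene strand, letters found in 33.8% of 32851 RefSeq promoters of the same length searched on both strands. They held no TATAAA (12.4% of promoters), and no AGGTCA (14% of promoters).

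**Figure D1:**
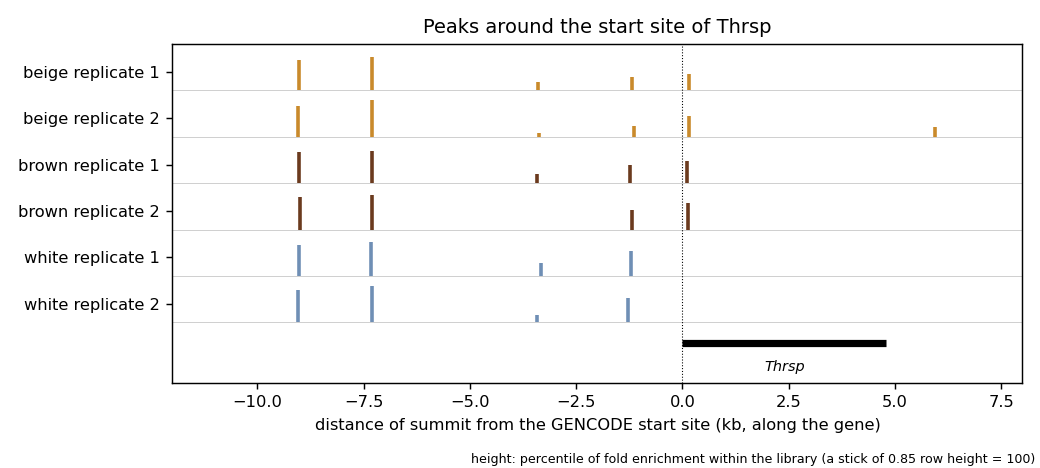
Peaks of each library around the start of Thrsp. The x axis is the distance of the summit from the GENCODE start in kb along the gene, each row is a library, and the height of a stick is the percentile of the fold enrichment within that library; the black bar is the gene. The sticks just right of 0 stand in the beige and brown rows and are absent from both white rows, while the sticks at -7.3 and -9.0 kb stand in all 6 rows.

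The regions upstream of Thrsp did not share this pattern. A region centred at -1205 bp (chr7:97418687-97419136) was open in all 6 libraries, and it held the nearest white summits, at -1220 bp (-log10 q 19.7) and -1273 bp (17.8). There the percentiles were 34.8 and 27.9 in beige, 46.3 and 49.1 in brown, and 62.5 and 62.3 in white. White ranked above every T3 library at this region, which is the opposite order to that of the start site. The regions at -7313 and -9020 bp were open in all libraries at percentiles 82.5 to 93.8 and 77.1 to 83.5, with overlapping groups. A weaker region at -3402 bp was called in 5 libraries and not in brown replicate 2. Over the whole window, which also holds the starts of Alg8, Ndufc2 and Kctd14, 8 of 15 regions were open in every library.

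**Figure D2:**
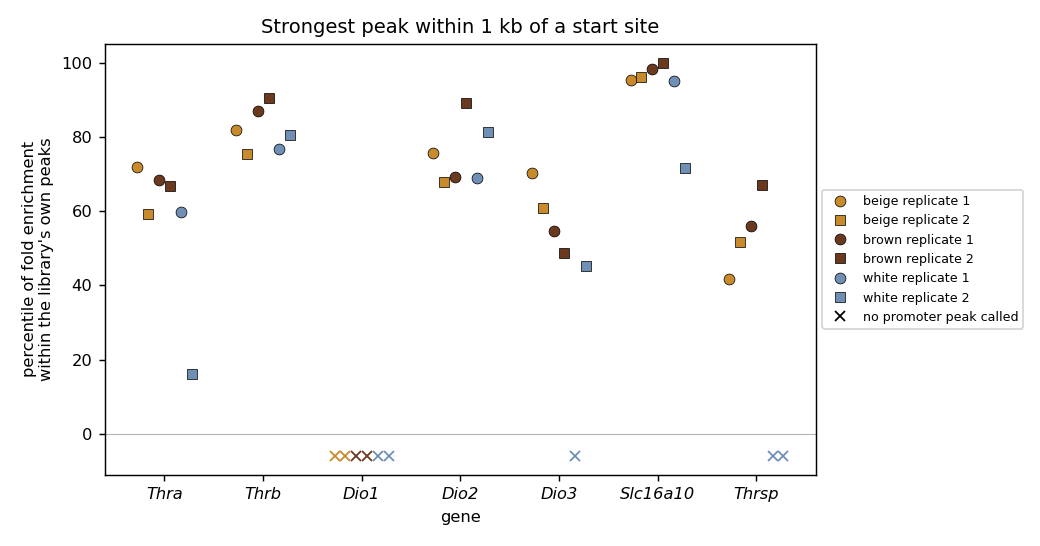
Strongest peak within 1 kb of a start site of each of the 7 genes. The y axis is the percentile of the fold enrichment within the library's own peaks; circles are replicate 1, squares replicate 2, and crosses under the line mark libraries without a promoter peak. Dio1 has only crosses, Thrsp has crosses for both white libraries and Dio3 for white replicate 1, and the points of Slc16a10 lie above 95 except white replicate 2 at 71.7.

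Across the 7 genes, the promoters of Thra, Thrb, Dio2 and Slc16a10 had a peak in all 6 libraries (4 of 7, against 62.2% of all coding genes). Dio3 had one in 5 libraries, Thrsp in 4 and Dio1 in none, and no member had one in both white libraries alone (0.178% of coding genes). The percentile was above both white libraries in all 4 T3 libraries for 1 of these 4 promoters, Slc16a10, against 19% of the 13637 coding genes with a promoter peak everywhere, and below both for none, against 9.03%. Ranked by -log10 q it was so for Slc16a10 and Thra (2 of 4, against 22.2%), both by less than 1 percentile. The lowest T3 value was 93.3 against 92.9 in white replicate 1 for Slc16a10, and 78.4 against 77.8 for Thra.

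Slc16a10 encodes MCT10, a carrier of thyroid hormones and aromatic amino acids, and its promoter had the highest percentile of the 7 in every library but white replicate 2. The gene lies on the minus strand at chr10:40033532-40142258 (ENSMUSG00000019838.11), and the summits fell from -92 to -62 bp of its start. The percentiles were 95.4 and 96.2 in beige, 98.2 and 99.8 in brown, and 95.1 and 71.7 in white. The T3 libraries were all above the white ones, but beige replicate 1 exceeded white replicate 1 by less than 1 percentile. The mean was 97.4 ± 1.98 (SD, n = 4) with T3 and 83.4 ± 16.6 (SD, n = 2) in white, and the difference of 14.0 rests on white replicate 2. Within the gene, 20 of the 33 regions of the window were intronic to Slc16a10, and 13 of the 33 were open in all 6 libraries. A weak white-only region lay in an intron at chr10:40077062-40077269, with -log10 q 3.35 and 2.43 at percentiles 8.50 and 2.69. It was separated by 123 bases from a region open in all 6 libraries. Beyond the gene start, regions at -35523 and -49371 bp were called in both beige and both white libraries and in no brown one. This pattern, shared by the groups from subcutaneous fat, held 4 of the 167 regions (2.40%), 2 at Slc16a10 and 2 at Thrb, against 1.16% of all regions.

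Thra encodes the thyroid hormone receptor α. Its gene lies at chr11:98740638-98769006 (plus strand, ENSMUSG00000058756.13), overlapping the 3′ end of the circadian repressor gene Nr1d1. The promoter percentiles were 71.9 and 59.3 in beige, 68.4 and 66.8 in brown, and 59.7 and 16.1 in white, with summits from -29 to -12 bp of the coding start. White replicate 2 was low, whereas white replicate 1 lay just above beige replicate 2, so the groups overlapped. The mean was 66.6 ± 5.32 (SD, n = 4) with T3 and 37.9 ± 30.8 (SD, n = 2) in white. This difference of 28.7 was greater than that of 99.1% of the 13637 genes, whose median difference was 1.11, but it came mostly from 1 library and was within the spread of the white replicates.

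Thra had the densest window, with 35 regions or 27.3 per 100 kb, of which 22 were open in all 6 libraries, and the starts of Casc3, Csf3, Med24, Msl1 and Nr1d1 also lie in it. In the T3 libraries 5 of the 22 ranked above both white libraries and 1 below, against 12.4% and 12.3% of shared regions anywhere. Of those above, a region inside the gene was nearest to the start of Thra. The others were nearest to Med24 (-2 bp), Nr1d1 (1524 bp) or Msl1 (-6467 and -667 bp). An intronic region 5704 bp into the gene (chr11:98747299-98747720) was one of the 5, with percentiles of 46.0 and 43.4 in beige, 44.1 and 44.7 in brown, and 18.7 and 1.00 in white. Its T3 values lay within 3 percentiles of each other and well above both white values, which also differed from each other. Another was a region inside Nr1d1 (chr11:98773657-98774294) at 50.2 and 47.2 in beige, 53.5 and 55.1 in brown, and 40.1 and 4.60 in white. Regions in both beige libraries and no other numbered 7 of the 167 (4.19%), against 1.94% of all regions, and 4 of them lay at Thra. They were centred at -10446, 12592, 20940 and 21166 bp from the nearest start. The one at 12592 bp lay 146 bases and the one at 21166 bp, in a coding exon, 39 bases from a region open in all 6 libraries, and the one at 20940 bp lay 58 bases from that at 21166 bp. The one at -10446 bp lay 226 bases from a region called in white replicate 2 alone, and its -log10 q was near the threshold, at 3.46 and 2.84. At the others the -log10 q was 8.69 and 5.99 (12592 bp), 7.38 and 8.29 (20940 bp), and 10.5 and 8.25 (21166 bp). A white-only region lay in a coding exon of Thra (chr11:98768303-98768647), near the threshold at -log10 q 4.62 and 3.90 and percentiles 1.34 and 0.906. Peaks in both white libraries and no T3 library held 2 of the 167 regions, 1.20% against 1.23% of all regions.

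Thrb encodes the receptor β, whose expression in many tissues is itself raised by T3, and is the longest of the genes (chr14:17660261-18038090, plus strand, ENSMUSG00000021779.17). Its first promoter was open in all libraries at percentiles 81.9 and 75.4 in beige, 87.1 and 90.3 in brown, and 76.8 and 80.5 in white. Brown ranked above white and above beige, while beige and white overlapped. The -log10 q was 103, 89.0, 129 and 112 with T3 and 39.7 and 50.7 in white. Such values also depend on the depth of a library, whose part was not tested. The study lists more mapped reads for the white than for the beige libraries and gives none for the brown ones. At the second start, at position 17981529, no library had a peak within 1 kb. The 250 bases before the first RefSeq start (position 17660960) were the only ones among the promoters of the 6 genes found in the RefSeq table that held AGGTCA, at -184 bp.

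The 56 regions of the Thrb window were spread thinly at 11.7 per 100 kb. Of them 38 were intronic to Thrb, 13 were open in all libraries and 20 in 1 library. Among the 13, T3 libraries ranked above both white ones at 1 and below at 3, against 12.4% and 12.3% of shared regions anywhere. The region chr14:17742950-17744066 was one of the 3, with 39.8 and 45.8 in beige, 56.8 and 36.6 in brown, and 70.9 and 71.3 in white. Both white values lay above every T3 value there. A pair of intronic regions came close to the T3-only kind. At chr14:17747940-17748336 the -log10 q was 12.1 and 12.6 in beige, 7.50 and 12.4 in brown, 2.61 in white replicate 2, and no peak was called in white replicate 1. At chr14:18029206-18029562 it was 15.6 and 19.4 in beige, 23.8 and 7.02 in brown, 3.75 in white replicate 1, and none was called in white replicate 2. In both, a single white peak close to the threshold kept the region out of the class.

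Brown cells had 3 regions at Thrb that were called in no other group, which were also the only such regions in the 7 windows (3 of 167 or 1.80%, against 0.877% of all regions). They lay at chr14:17649332-17649565, chr14:17894865-17895122 and chr14:18062117-18062720, with -log10 q from 2.66 to 8.82. Beige cells had 2 of their own. One was a flank of the promoter (chr14:17659688-17659876) at percentiles under 1, separated by 27 bases from the promoter region. The other lay in an intron at chr14:18022450-18022672, with -log10 q 9.52 and 13.4 and percentiles of 51.9 and 62.2, and it stood 358 bases from the nearest other region.

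The receptor's DNA element was looked for in the 300 bp around the centre of each region, on both strands. The hexamer AGGTCA was found in 37 of 167 regions (22.2%, against 20.4% of all regions, 27.4% of all T3-only regions and 20.0% of all white-only regions). The exact direct repeat of 2 such hexamers with a spacer of 4 bases (DR4) was in none. It was in 0.0195% of all regions, 0.123% of all T3-only regions and 0% of all white-only regions. With up to 2 mismatches in its 12 fixed letters it was in 13 of 167 (7.78%, against 4.03% of all regions, 6.02% of all T3-only regions and 3.31% of all white-only regions). These matches were not limited to one medium, since 4 of the 13 regions were open in all 6 libraries and 5 in 1 library only, and none lay in the window of Thrsp. The DR1, the same repeat with a spacer of 1 base, which PPARγ is known to bind, was in none of the 167 exactly. It was in 0.0776% of all regions, 0.123% of all T3-only and 0.0419% of all white-only regions. With up to 2 mismatches it was in 11 regions (6.59%, against 5.23% of all regions, 8.64% of all T3-only and 4.91% of all white-only regions). For the hexamer and for both repeats, exact or with mismatches, the share was higher in T3-only than in white-only regions. Exact repeats were rare, with the DR4 in 38 and the DR1 in 151 of 194610 regions. The cause of these differences was not tested.

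The 2 regions called in at least 2 libraries that came within 1 mismatch of the DR4 are shown, with the hexamers in capitals and positions of the element counted from 1 at its 5′ end. The first lies in the intronic region of Thrb that was called in beige libraries alone (chr14:18022571-18022630, plus strand, substitution G3T). The second lies in an intron of Slc16a10 (chr10:40058709-40058768, plus strand, antisense to the gene; substitution G13C).
Thrb intron: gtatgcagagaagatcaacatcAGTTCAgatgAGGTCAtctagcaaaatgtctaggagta
Slc16a10 intron: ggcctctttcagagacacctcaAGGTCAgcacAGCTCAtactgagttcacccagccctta
The region of the second (chr10:40058479-40059048) had -log10 q 10.5 and 22.1 in beige, 33.2 and 8.72 in brown, 9.40 in white replicate 2 and no peak in white replicate 1. Thus the Thrb match lay in chromatin called in beige cells alone and the Slc16a10 match in chromatin of all 3 groups. A match of letters is not a measurement of receptor binding.

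Dio2 encodes the type 2 deiodinase, which converts T4 to T3 inside the cell. It lies on the minus strand at chr12:90724552-90738438 (ENSMUSG00000007682.6). All 6 libraries had a promoter peak, with summits from -623 to -558 bp of the GENCODE start, which RefSeq places further upstream at position 90739038, so that the same summits lay from -23 to 42 bp of the RefSeq start. The percentiles were 75.6 and 67.9 in beige, 69.1 and 89.2 in brown, and 68.8 and 81.2 in white. The groups overlapped, with means of 75.5 ± 9.78 (SD, n = 4) with T3 and 75.0 ± 8.79 (SD, n = 2) in white. The 250 bases before the RefSeq start are shown because this promoter was open in every library. They lie at chr12:90739039-90739288 on the minus strand, and capitals mark TGACGTCA, the palindrome known as a cAMP response element, and TATAAA.
Dio2 promoter: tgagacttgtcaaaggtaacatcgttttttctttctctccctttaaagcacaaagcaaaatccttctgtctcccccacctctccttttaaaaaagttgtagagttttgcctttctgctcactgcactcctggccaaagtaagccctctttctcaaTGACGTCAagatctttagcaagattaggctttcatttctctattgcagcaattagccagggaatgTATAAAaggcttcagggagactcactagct
The palindrome began at -95 bp and occurs in 1.55% of 32851 RefSeq promoters, and TATAAA began at -30 bp and occurs in 12.4%. The Dio2 region around them was open in all libraries. TATAAA was also found at -31 bp from the RefSeq start of Dio3 and at -167 bp from the second RefSeq start of Thrb.

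Of the 8 regions in the Dio2 window 4 were open in all libraries, and none was of the T3-only or white-only kind. The strongest lay beyond the 3′ end, 44090 bp after the start (chr12:90694084-90694954), at percentiles 87.0 to 99.5, and another upstream at -43179 bp (chr12:90781048-90781934) at 70.0 to 91.1. A region 20018 bp after the start (chr12:90718271-90718587) ranked at 59.1 and 78.2 in beige, 69.0 and 92.5 in brown, and 23.8 and 61.4 in white. The lowest value there was that of white replicate 1, and the groups overlapped. Just upstream of the promoter, at -2226 bp (chr12:90740558-90740776), the percentiles were 46.1 and 54.3 in beige, 35.7 in brown replicate 1, and 79.7 and 86.7 in white, with no peak in brown replicate 2. Both white libraries ranked above every T3 library at this region. A region in the coding exon, at 8645 bp, and one in the intron, at 2808 bp, were each called in 4 libraries, and neither in brown replicate 2.

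Dio3 encodes the type 3 deiodinase, which inactivates T4 and T3 and is an imprinted gene without introns. Its start site (chr12:110279068-110281097, plus strand, ENSMUSG00000075707.5) was open in all T3 libraries and at most weakly in white ones. In the region chr12:110278813-110279475 the -log10 q was 45.3 and 36.3 in beige and 25.5 and 15.4 in brown. White replicate 1 had no peak, and white replicate 2 had one at 4.72. The percentiles were 70.2, 60.8, 54.6 and 48.8 with T3 and 9.87 in white replicate 2, so that T3 libraries were higher, with beige above brown. The strongest promoter peak of white replicate 2 lay elsewhere, at -909 bp, in a noncoding exon of the antisense gene Dio3os (-log10 q 11.3, percentile 45.3). That neighbouring region was weaker in the T3 libraries, at percentiles 20.3 and 6.66 in beige and 15.6 and 2.12 in brown. A promoter peak in these 5 libraries and not in white replicate 1 was the pattern of 85 coding genes (0.387%).

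The 250 bases before the GENCODE start of Dio3, all inside this open region, are shown for their base composition and lie at chr12:110278818-110279067 on the plus strand. Capitals mark GGGCGG, the letters of a GC box, on either strand.
Dio3 promoter: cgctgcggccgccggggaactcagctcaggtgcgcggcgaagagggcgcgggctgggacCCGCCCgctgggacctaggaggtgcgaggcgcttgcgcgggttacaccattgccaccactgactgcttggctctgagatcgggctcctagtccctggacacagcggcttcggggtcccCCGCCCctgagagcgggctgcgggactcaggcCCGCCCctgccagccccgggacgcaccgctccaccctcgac
GGGCGG was found at 4 places in the 250 bases before the RefSeq start of Dio3 (position 110279230), as it is at least once in 32.7% of RefSeq promoters, and these bases held 69.6% GC and 21 CpG. The corresponding bases of Dio2 held 41.6% GC and 2 CpG, those of Thrsp 53.6% and 2, those of Slc16a10 64.4% and 21, and those at the first start of Thrb 71.6% and 30, against medians of 52.4% and 6 over all promoters. The start sites called in T3 libraries and missed or weak in white ones thus included a CpG-poor promoter, Thrsp, and a CpG-rich one, Dio3. Upstream at -15335 bp, a region open in all libraries (chr12:110263250-110264111) ranked at 68.2 and 74.5 in beige, 61.1 and 49.2 in brown, and 44.8 and 23.5 in white. The T3 libraries lay above both white libraries there too, brown replicate 2 by less than 5 percentiles. At the other shared regions of Dio3, at -34280 and 19560 bp, the groups overlapped.

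**Figure D3:**
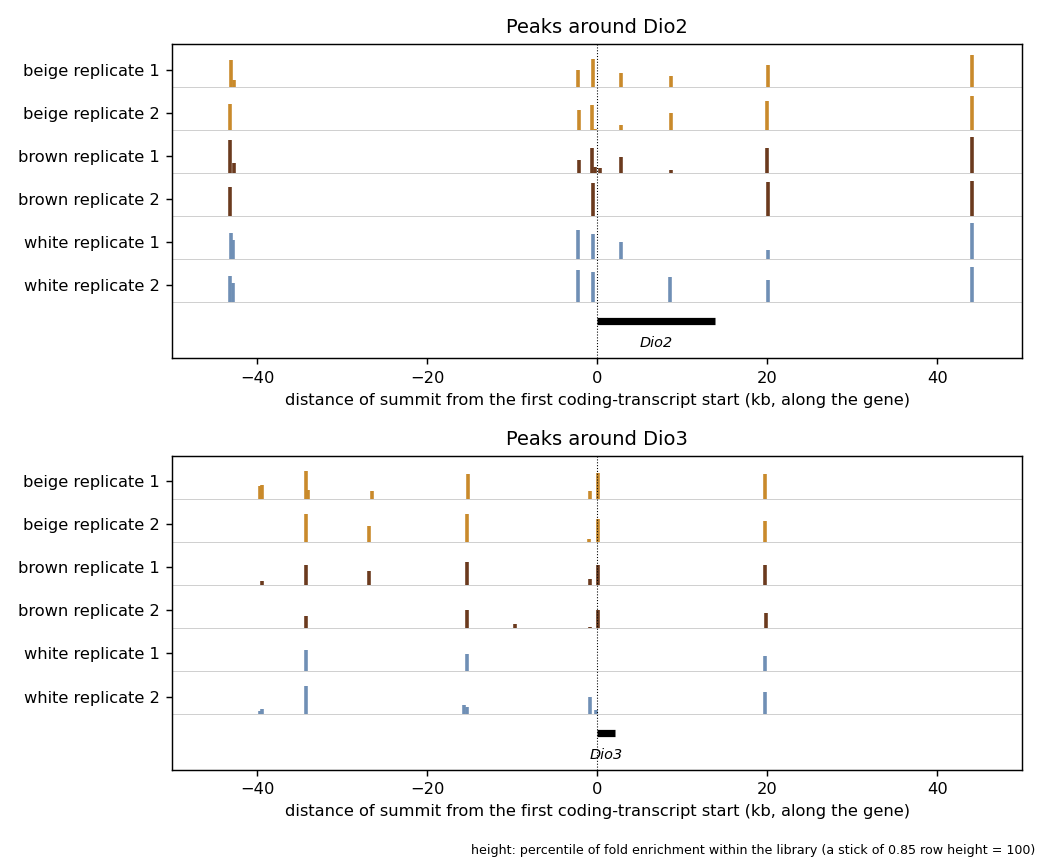
Peaks of each library around the deiodinase genes Dio2 (upper panel) and Dio3 (lower panel). The x axis is the distance of the summit from the first coding-transcript start in kb along the gene, each row is a library, and the height of a stick is the percentile of the fold enrichment within that library; the black bar is the gene. In the upper panel all 6 rows have a stick just left of 0, and in the lower panel the stick at 0 is tall in the beige and brown rows, short in white replicate 2 and missing in white replicate 1.

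Dio1 encodes the type 1 deiodinase, an enzyme best known from liver, kidney and thyroid. It lies on the minus strand at chr4:107291465-107307169 (ENSMUSG00000034785.14), and no library had a peak within 1 kb of its start, as was the case for 28.8% of coding genes. Its window held 10 regions, of which 2 were open in all libraries and 3 lay at the promoters of Hspb11, Lrrc42 or Yipf1. The region nearest to Dio1 with peaks in every library was at -7175 bp and lay closer to the start of Yipf1. In both beige libraries alone a region 21393 bp after the start was called (chr4:107285568-107285842), at -log10 q 6.16 and 3.58.

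Over all windows together, the number of peaks overlapped between the groups. The windows held 124 and 124 peaks in beige, 122 and 96 in brown, and 121 and 119 in white, or 0.104% and 0.0973%, 0.107% and 0.0880%, and 0.100% and 0.0997% of the lists. Exact 95% intervals (Clopper-Pearson), of counting error alone, reached from 0.0713% to 0.107% in brown replicate 2 and from 0.0890% to 0.128% in brown replicate 1, and the group means of 0.101% ± 0.00502, 0.0976% ± 0.0136 and 0.100% ± 0.000537 (SD, n = 2 each) overlapped. Of the 167 regions 65 were open in all 6 libraries (38.9%, against 30.2% of all regions) and 47 in 1 library. A single region, that of Thrsp, was of the T3-only kind (0.599%, against 1.25% of all regions). There were 5 without white replicate 2, 3 without brown replicate 2 and 4 at q under 0.00001, and the 2 white-only regions became 17 without white replicate 2 and 10 without white replicate 1. Of the 65 shared regions, 10 ranked higher in all 4 T3 libraries than in both white ones, against 12.4% of shared regions anywhere, and 7 ranked lower, against 12.3%. Both counts lay near these shares. Most regions were in introns (90) or between genes (59), and 9 lay in coding exons, 5 in UTRs and 4 in noncoding exons.

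**Figure D4:**
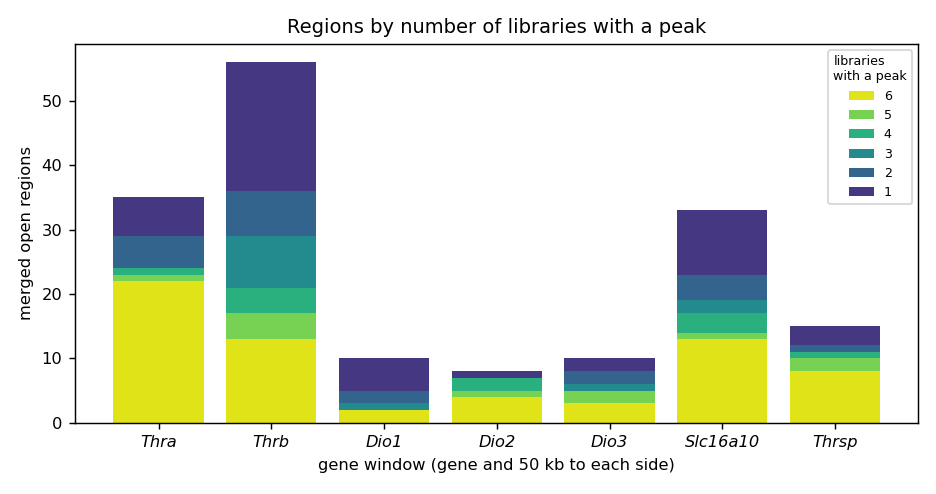
Open regions in the window of each gene, from 50 kb before to 50 kb after it. The y axis is the number of merged regions and the colours give the number of libraries with a peak in the region, from 6 (yellow, bottom) to 1 (purple, top). Thra has the most regions shared by all 6 libraries, 22 of 35, and Thrb the most regions in 1 library, 20 of 56.

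A further list of 24 genes of the same pathway was examined with the same rules, and 21 of them had a promoter peak in every library (against 62.2% of all coding genes). Slco1c1, a carrier of thyroid hormones at the blood-brain barrier, had none in any library. Hr, a corepressor known to be induced by T3, had none in white replicate 1 alone. Ucp1 had one in the brown libraries alone, at the low percentiles given above. A T3-only region lay in the windows of 8 of the 24 genes, against 17.2% of all coding genes, a share not corrected for window length. Slc7a5, a carrier of large amino acids and thyroid hormones, Rxra, the heterodimer partner of the receptors, and Ppargc1a, a thermogenic coactivator, had 2 such regions each. Slco1c1, Crym, which binds T3 in the cytosol, the coactivator Ncoa3, Ucp1 and Fasn, the fatty acid synthase, had 1 each. A white-only region lay in the windows of as many genes, 8 of 24, against 15.4%. Among them were Slc3a2, the partner chain of amino acid carriers, the coactivators Ncoa1 and Ncoa2, Klf9, a T3-induced transcription factor, Me1, the malic enzyme, and also Slco1c1 and Ucp1, with 1 region each. The promoter percentile was above both white libraries in all T3 libraries for Slc7a5 and Rxrb, and below for Rxrg and Scd1, a lipogenic desaturase, 2 of 21 each way against 19% and 9.03% of all coding genes with a promoter peak everywhere.

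Coding genes whose 6 promoter percentiles were nearest to those of a member, by Euclidean distance over the 6 libraries, were Gnb1 (9.43), Slc4a2 (13.7) and Klk9 (14.4) for Thra. For Thrb they were Snx24 (5.13), Kmt2c (5.28) and Tgfb2 (5.39). For Dio2 they were Zfx (8.47), Serf1 (10.0) and Casd1 (10.9), and for Slc16a10 Cfap20 (3.03), Aph1a (4.66) and Acsl4 (5.04).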

How the data were processed

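For each of the 6 libraries 1 ATAC-seq peak list was used. The authors trimmed the reads with Trimmomatic, aligned them to mm10 with BWA and called peaks per library with MACS2 at a q value under 0.05. This is the account given by the study, which does not describe the brown libraries. The deposited fold enrichment is the ratio of the signal at a summit to the surrounding background, and the authors also give the summit's -log10 q. Both depend on the depth of a library, so the fold enrichment was ranked within each list.

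Intervals with several summits were counted once, at the summit of highest -log10 q, and those overlapping by at least 1 bp were merged over the 6 libraries. The centre of a region is the median of its libraries' strongest summits, and distances are from the nearest start of a coding transcript of the gene. A region was T3-only if a peak was called in all 4 beige and brown libraries and in neither white one, and white-only for the reverse. Genes and promoters (1 kb to each side of a coding transcript's start) came from GENCODE vM21, which has the coordinates of mm10, and sequences from the RefSeq copy of that build. The promoters of 6 of the 7 genes were in the RefSeq table, that of Thra was not. Python 3.11.15 with numpy 2.4.6, pandas 2.3.3, scipy 1.17.1, pysam 0.24.0 and matplotlib 3.10.9 was used, and merging was tested on simulated peaks. No group test was made.

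The genes, lists and rules were chosen with earlier results of these data known. The promoter motifs, the patterns of single groups, the comparison with RefSeq starts, and the regions named for standing close to the T3-only kind or for their order between groups were chosen after peak values had been seen. All 7 genes are named, with each T3-only and white-only region and the strongest promoter peak. Where nothing else is said, positions are mm10. Comparisons between groups rest on 2 libraries in each group and not on the number of peaks, and the lists hold no reads.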

Additional observations from a re-analysis of the deposited data

How the results depend on the processing

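No paired analysis was possible because no model was fitted to these lists, and the labels do not say whether replicate numbers tie libraries across groups. Of 62 values recomputed under other settings without leaving out a library, 46 stayed within the spread of replicates or, for counts, within 1.5 times. With 20 kb to each side of a gene the mean share of the peaks was 0.0744% in beige, 0.0712% in brown and 0.0688% in white, and with 100 kb 0.142%, 0.140% and 0.141%. In white it was 0.103% at q under 0.00001 and 0.0985% in equally long lists of 109143 peaks. T3-only regions numbered 4 at q under 0.00001, 2 in equally long lists, 3 with 100 kb, and 2 where the overlap had to reach 0.5 of both peaks. The 3 regions added at q under 0.00001 were the start site of Dio3 and both intronic Thrb regions with a single weak white peak. At q under 0.00001 the white-only region was one at Thrb (chr14:17784403-17784745) whose beige peaks were weak. White-only regions numbered 1, 1 and 4 at q under 0.00001, in equally long lists and at that overlap. The shares over all regions under these settings were not computed. The start of Thrsp kept its peak in the T3 libraries and its absence in white under the settings tried, except that a promoter of 3 kb took in the region open in both white libraries.

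Leaving out 1 library at a time gave 1 to 5 T3-only regions (5 without white replicate 2, 3 without brown replicate 2), 2 to 17 white-only regions (17 without white replicate 2, 10 without white replicate 1) and 66 to 71 regions open in the remaining libraries. With a library left out the rule is looser for every region, and the shares over all regions were not computed. The share of a list in the 7 windows ranged from 0.0973% to 0.104% in beige (124 peaks in each), from 0.0880% to 0.107% in brown (96 to 122) and from 0.0997% to 0.100% in white (119 to 121). Member promoters open in all libraries numbered 4 to 5 and those of the pathway list 21 to 22. Added after seeing the data, ranking by -log10 q gave 2 promoters with T3 above white, and leaving out 1 library 1 to 3 (3 without beige replicate 2). Without white replicate 2, Dio3 had no white promoter peak.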
